A study of Mus musculus with 6 samples.

Results

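The Wnt receptors and the TCF transcription factors that read the Wnt signal in the crypt were followed through 10 genes in sorted epithelial cells of the mouse small-intestinal crypt. The genes were taken by name, with earlier results of these data known: the ligand Wnt3, the receptors Fzd5, Fzd7, Lrp5, Lrp6 and Lgr4, the nuclear factors Tcf7 and Tcf7l2, and the target genes Sp5 and Myc. Each was found once among the 23565 genes of the count table, and all 10 were among the 12439 genes that passed the filter on low counts.

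There were 3 RNA sequencing libraries in each of 2 groups. Mice of the genotype HopXCreER::Rosa26LSL-tdTomato gave the Hopx-CreER cells, sorted as positive for tdTomato, and mice of the genotype Lgr5eGFP-IRES-CreER::Rosa26LSL-tdTomato gave the Lgr5-CreER cells, sorted as positive for both eGFP and tdTomato. In both groups a tamoxifen-inducible Cre recombinase, driven from the Hopx or the Lgr5 locus, switches on a red reporter at Rosa26, and crypts were taken 16 hours after 1 mg of tamoxifen, so both groups carry the reporter and received the drug. The age and sex of the mice are not given in the labels. Genotype and sorting gate change at once between the groups and cannot be told apart. The description gives 3 mice of each genotype, but Lgr5-CreER libraries 2 and 3 have columns named with a single number, and if both came from 1 mouse the p-values are too small; libraries are numbered here by column order.

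Wnt proteins bind a Frizzled receptor together with the co-receptor LRP5 or LRP6, which keeps β-catenin from being degraded, and β-catenin then enters the nucleus and joins TCF/LEF proteins on DNA. R-spondins, acting through LGR4 and LGR5, keep Frizzled and LRP proteins on the cell surface. In the small intestine this pathway maintains the stem cells at the crypt base, where Paneth cells are an epithelial source of Wnt3 and stromal cells supply other Wnts. Tcf7l2 encodes TCF4, the TCF protein that crypt stem cells require, and Tcf7 encodes TCF1.

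The 6 libraries held 10839306 to 14570555 counts each. Levels are in CPM, counts scaled to a common library size with TMM factors, where 1 count equals 0.0669 to 0.0928 CPM. A member had between 99 counts (Lrp6) and 4680 counts (Myc) in a library. Hopx-CreER library 3 stood apart within its group: its log2 differences from libraries 1 and 2 had an SD of 0.587 and 0.562 over 8165 genes, against 0.325 between libraries 1 and 2, and its column name carries a tag that the labels do not explain. Cell type markers moved with the groups. The summed level of 10 Paneth cell markers was 14980 to 32570 CPM in Hopx-CreER libraries and 1666 to 3268 CPM in Lgr5-CreER libraries, and 9 of these genes were called higher in the former. That of 7 goblet cell markers was 6853 to 10410 against 1989 to 2631 CPM (7 called higher), of 8 enteroendocrine markers 2921 to 6199 against 168.5 to 297.0 CPM (8 higher), of 6 tuft cell markers 171.9 to 810.4 against 93.97 to 135.5 CPM (4 higher), and of 8 enterocyte markers 1388 to 3002 against 647.7 to 803.9 CPM (7 higher). That of 7 crypt base stem cell markers was 2759 to 4589 against 9598 to 10080 CPM (7 called lower). Most of this sum was Olfm4 (means 2661 and 7543 CPM), and the 7 include Lgr5, the gene of the eGFP gate. Most of the enterocyte sum in Lgr5-CreER libraries was Vil1, at 499.4 to 570.8 CPM. Vil1 was the enterocyte marker not called (edgeR adjusted p 0.0846), and the 7 called ones had log2 fold changes from 1.51 (Fabp2) to 5.49 (Lct). The part of these cell types in the results was not tested. These are bulk samples, so here and in what follows fewer cells of a type and less RNA per cell cannot be told apart. The labelled tissue is intestinal epithelium: Vil1, a brush border protein gene, averaged 680.6 and 538.0 CPM, and Col1a1 of fibroblasts was at 0 counts in every library. Of the 2 endothelial markers in the table, Cdh5 was at 0 counts in every library, while Pecam1 had 1.81, 3.55 and 1.02 CPM across the Hopx-CreER libraries against 0, 0.950 and 1.31 CPM (log2 fold change 1.51 ± 0.88, SE; edgeR adjusted p 0.306). Vim, which encodes the mesenchymal filament protein vimentin, was however 23.8 to 33.2 CPM in Hopx-CreER libraries and 2.16 to 3.30 CPM in Lgr5-CreER libraries. Pdgfra, the remaining mesenchymal marker in the table, was at 0 counts in every Hopx-CreER library and had 2 counts in Lgr5-CreER library 2.

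Promoter windows are shown for the target gene Sp5 and for both Frizzled genes of the set, because these receptors moved in opposite directions. TCF/LEF proteins are known to bind a short DNA motif, and the motif CTTTGAT, its variant CTTTGAA and the shorter CTTTGT were searched on both strands in the 250 bases before each start site, from RefSeq on GRCm38.p6. Matches are in capitals, and a capital run that reads ACAAAG is CTTTGT on the opposite strand. Each window is printed 5′ to 3′ on the strand of the gene.
Sp5 (chr2:70474673-70474922, plus strand): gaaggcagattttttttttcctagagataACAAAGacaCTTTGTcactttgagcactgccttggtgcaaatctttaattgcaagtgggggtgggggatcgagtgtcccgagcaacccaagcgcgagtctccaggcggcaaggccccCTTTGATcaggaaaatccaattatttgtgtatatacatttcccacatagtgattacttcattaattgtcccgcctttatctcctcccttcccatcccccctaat
Fzd7 (chr1:59481897-59482146, plus strand): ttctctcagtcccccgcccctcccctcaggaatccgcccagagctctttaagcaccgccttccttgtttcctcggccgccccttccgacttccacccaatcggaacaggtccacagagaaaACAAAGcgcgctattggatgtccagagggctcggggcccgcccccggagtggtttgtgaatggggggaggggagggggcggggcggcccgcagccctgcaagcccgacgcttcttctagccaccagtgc
Fzd5 (chr1:64737751-64738000, minus strand): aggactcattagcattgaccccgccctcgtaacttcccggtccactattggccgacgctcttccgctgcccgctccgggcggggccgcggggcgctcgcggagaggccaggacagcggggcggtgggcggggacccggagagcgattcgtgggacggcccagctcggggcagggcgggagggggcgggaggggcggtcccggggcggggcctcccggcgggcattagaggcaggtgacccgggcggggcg
The Sp5 window held 3 matches, with their first bases 221, 212 and 104 bases before the start site, and the last of them was CTTTGAT. The Fzd7 window held 1 match, CTTTGT on the opposite strand, 129 bases before the start site, and these letters were not in the Fzd5 window. At least 1 of the 3 motifs was in 22.5% of all 32851 windows of this length, CTTTGT alone in 16.5% and CTTTGAT in 3.21%. The RefSeq table had windows for 7 of the 10 members, which left out Myc, Lrp5 and Lrp6. The windows of Wnt3, Lgr4 and Tcf7 held none of these letters, and of the windows of Tcf7l2 the downstream one (chromosome 19, 55895071 to 55895320) held 1. A match is a description of letters and was not tested as a binding site.

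Of the 10 members, 3 were lower in Hopx-CreER cells (Fzd7, Tcf7 and Myc), 1 was higher (Fzd5) and 6 did not pass an edgeR adjusted p of 0.05. Among all tested genes 3.3% were called lower, 9.45% higher and 12.8% in either direction. That background moves with single libraries: the 410 genes called lower fell in number to 218 if Hopx-CreER library 2 was left out, and to 200, 117 and 160 if Lgr5-CreER library 1, 2 or 3 was, where the 1176 called higher fell to 744, 606 and 722. The number called lower rose to 593 without Hopx-CreER library 3 and to 1037 with offsets for GC content. With Hopx-CreER set over Lgr5-CreER, the median log2 fold change was -0.51 over the members and -0.03 over all tested genes. The groups did not overlap for 5 members, which were the called genes and Sp5, where 34.9% of all tested genes showed no overlap. Without Hopx-CreER library 3, 4 members were lower and 1 higher. When the columns of a shared number were summed, 2 members remained lower, Fzd7 and Tcf7, and the higher call was lost.

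**Figure D1:**
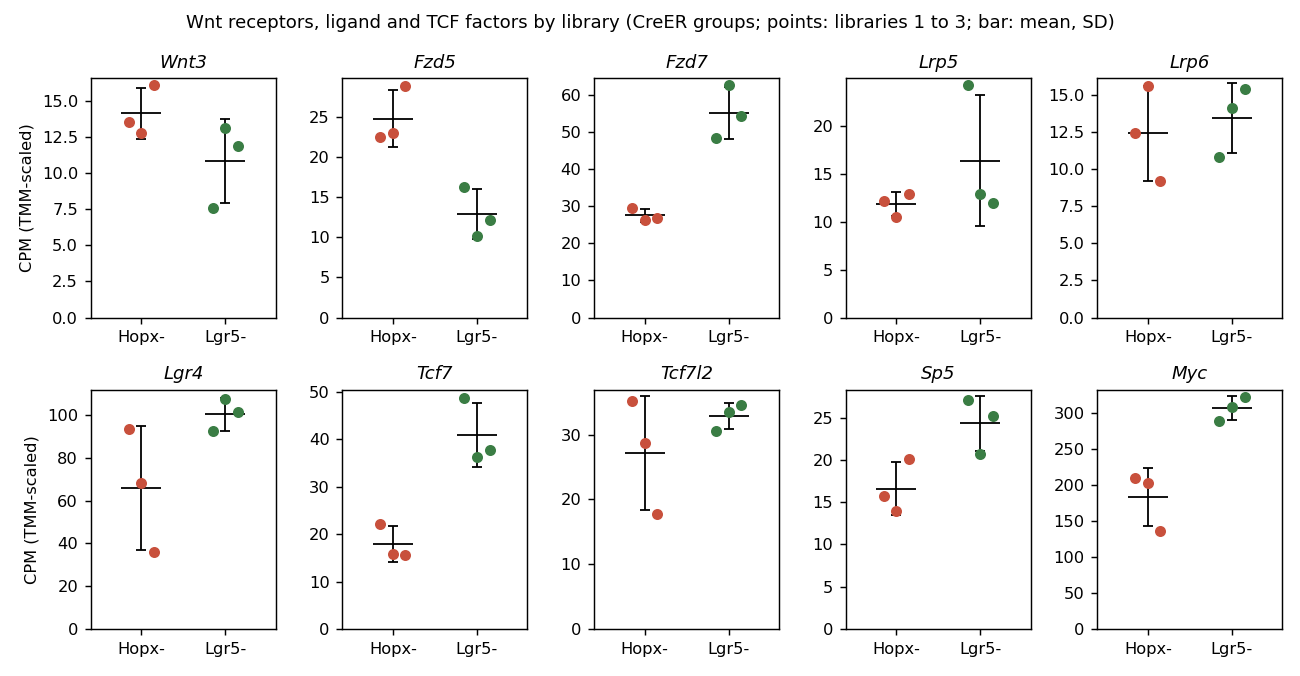
Level of each gene in CPM scaled by TMM factors (vertical axis, from 0), with 1 point per library and the mean and SD of 3 libraries per group. Fzd7, Tcf7, Sp5 and Myc lay higher in every Lgr5-CreER library, Fzd5 lay higher in every Hopx-CreER library, and the groups of the other genes overlapped.

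The ligand gene Wnt3 (ENSMUSG00000000125.5; chromosome 11, 103774150 to 103817957, plus strand, GRCm38) did not pass the test. Wnt3 stood at 13.6, 12.8 and 16.1 CPM in Hopx-CreER libraries 1, 2 and 3 and at 7.56, 13.1 and 11.9 CPM in the Lgr5-CreER libraries. Lgr5-CreER libraries 1 and 3 lay below every Hopx-CreER library, and the groups overlapped through Lgr5-CreER library 2. The log2 fold change was 0.38 ± 0.27 (SE), with a 95% interval from -0.22 to 0.98 (edgeR adjusted p 0.391), and it was 0.17 without Lgr5-CreER library 1. Wnt3 made up 72.5% ± 2.98 (SD, n = 3) of the summed Wnt ligand level per kb in Hopx-CreER cells and 62.1% ± 13.2 in Lgr5-CreER cells, over 14 of the 19 Wnt genes that the table held. Only 4 Wnt genes passed the filter on low counts, and the other three, Wnt9b, Wnt5a and Wnt5b, had edgeR adjusted p-values of 0.172, 0.247 and 0.283. Wls, the carrier that takes Wnt proteins to the cell surface, was lower in Hopx-CreER cells by a log2 fold change of -0.70 ± 0.18 (SE; edgeR adjusted p 0.0318), a call kept in 2 of the 6 fits that left out 1 library and lost with the columns of a shared number summed (0.11). Porcn, the enzyme that attaches the lipid of Wnt proteins, had a log2 fold change of 0.13 ± 0.35 (edgeR adjusted p 0.835).

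Both Frizzled receptor genes of the set changed, in opposite directions. Fzd7 encodes a Frizzled that Lgr5 stem cells of the mouse intestine are known to use. Fzd7 (ENSMUSG00000041075.8; chromosome 1, 59482424 to 59486955, plus strand) stood at 29.5, 26.3 and 26.7 CPM across the Hopx-CreER libraries and at 48.5, 62.5 and 54.3 CPM in the Lgr5-CreER libraries. Every Lgr5-CreER library lay above every Hopx-CreER library, and the spread within the Hopx-CreER group was narrow. Means were 27.5 ± 1.76 and 55.1 ± 7.07 CPM (SD, n = 3), and the log2 fold change was -1.0 ± 0.15 (SE; edgeR adjusted p 0.00388). The call held in each of the 16 alternative analyses, with log2 fold changes from -1.19 to -0.90 and adjusted p-values up to 0.0284.

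Fzd5 encodes a Frizzled known for a role in Paneth cell maturation in the mouse. Fzd5 (ENSMUSG00000045005.9; chromosome 1, 64730558 to 64737751, minus strand) stood at 22.5, 23.0 and 28.9 CPM across the Hopx-CreER libraries and at 16.3, 10.2 and 12.1 CPM in the Lgr5-CreER libraries. The lowest Hopx-CreER library was above the highest Lgr5-CreER library. The log2 fold change was 0.94 ± 0.23 (SE; edgeR adjusted p 0.0296). The call was lost without Hopx-CreER library 2 (edgeR adjusted p 0.0615), Lgr5-CreER library 2 (0.124) or 3 (0.116), and with the columns of a shared number summed, with Hopx-CreER library 3 (0.11) or without it (0.0854), while the log2 fold change stayed at 0.73 or more in all 16 alternatives. A gene of uncertain type on the opposite strand, Gm38058, shares exon bases with Fzd5 but had only 21 counts in the 6 libraries together.

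The balance of these receptors can be read within a library, where the scaling between libraries plays no part. Per kb of exon, Fzd7 was 2.0, 1.75 and 1.41 times the level of Fzd5 in the Hopx-CreER libraries, and 4.53, 9.36 and 6.84 times in the Lgr5-CreER libraries. The log2 ratio of Fzd7 to Fzd5 was 0.77 ± 0.25 against 2.73 ± 0.53 (SD, n = 3), so that the ratio was 3.89-fold higher in Lgr5-CreER cells. The exact two-sided permutation test gave p = 0.1, the smallest that 3 against 3 allows (adjusted over 4 ratios, 0.133). Neither gene overlapped between the groups and their directions were opposite, so the ratio could not overlap. The test of this ratio is therefore no separate support. Among 9 Frizzled genes in the table, Fzd7 made up 30.1% ± 2.74 of the summed level per kb in Hopx-CreER cells and 46.8% ± 4.54 in Lgr5-CreER cells, and Fzd5 made up 17.7% ± 1.73 and 7.22% ± 1.95 (SD, n = 3). The summed Frizzled level itself was 18.2 to 21.8 CPM per kb and 25.3 to 26.9 CPM per kb. Fzd2 was the other called Frizzled, lower in Hopx-CreER cells by a log2 fold change of -0.98 ± 0.26 (edgeR adjusted p 0.0403), a call kept in 1 of the 6 fits that left out 1 library and lost with the shared columns summed (0.0953). Fzd4 and Fzd9 had log2 fold changes of 1.43 ± 0.47 and 1.27 ± 0.45 (edgeR adjusted p 0.0822 and 0.103). Of 13 tested genes in a list of 16 Frizzled, LRP and other Wnt receptors, 1 was called higher and 2 lower, and 10 failed the test.

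**Figure D2:**
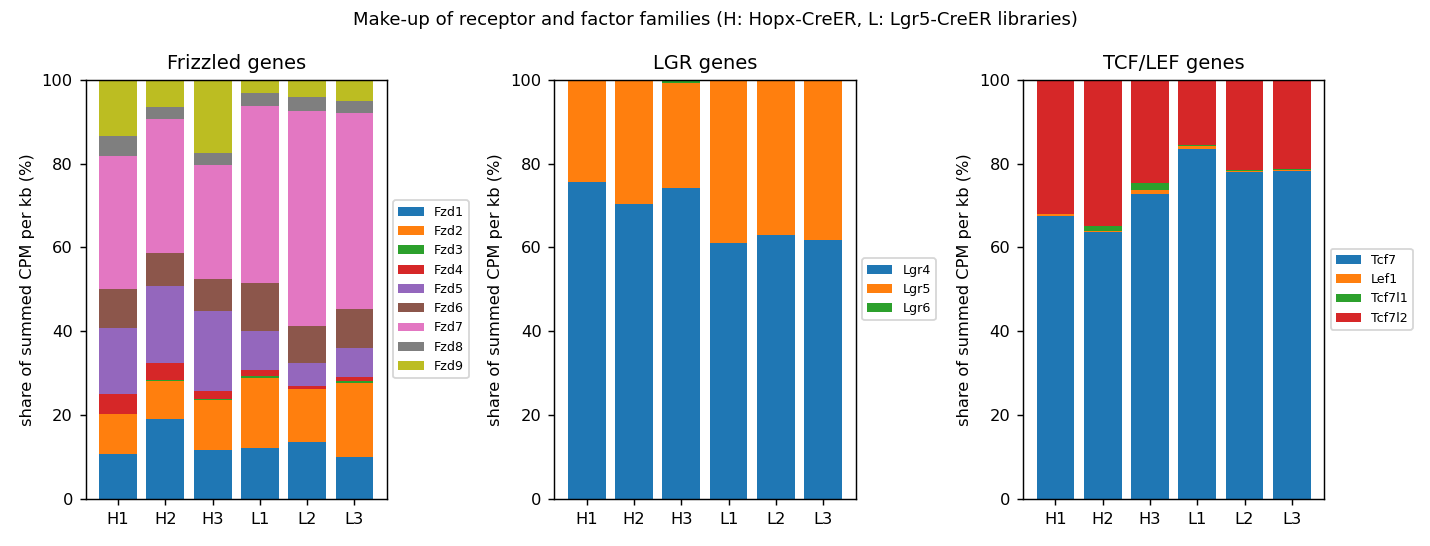
Share of each gene in the summed level per kb of exon of its family (percent, stacked to 100), for each library of the Hopx-CreER (H) and Lgr5-CreER (L) groups. Fzd5 took 15.8% to 19.1% of the Frizzled sum in H libraries and 5.48% to 9.34% in L libraries, and Tcf7 took 63.6% to 72.8% and 77.9% to 83.5% of the TCF/LEF sum.

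The co-receptor genes Lrp5 and Lrp6 showed no difference larger than the spread between libraries. Lrp5 (ENSMUSG00000024913.16; chromosome 19, 3584828 to 3686564, minus strand) stood at 12.1, 10.48 and 12.9 CPM across the Hopx-CreER libraries and at 24.2, 12.9 and 12.0 CPM in the Lgr5-CreER libraries. Lgr5-CreER library 1 was far above the other five, which lay close together. The log2 fold change of Lrp5 was -0.47 ± 0.30 (SE; edgeR adjusted p 0.355), and -0.07 without that library. Lrp6 (ENSMUSG00000030201.15; chromosome 6, 134446476 to 134566965, minus strand) stood at 12.4, 15.6 and 9.18 CPM across the Hopx-CreER libraries and at 10.8, 14.1 and 15.3 CPM in the Lgr5-CreER libraries, with full overlap. Its log2 fold change was -0.11 ± 0.27, with a 95% interval from -0.71 to 0.49 (edgeR adjusted p 0.815), and the sign turned without Hopx-CreER library 3 (0.05). The log2 ratio of Lrp5 to Lrp6 per kb was 0.45 ± 0.53 against 0.72 ± 0.82 (SD, n = 3; exact two-sided permutation p = 0.7).

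The R-spondin receptor gene Lgr4 varied most within the Hopx-CreER group, by highest over lowest library. Lgr4 (ENSMUSG00000050199.13; chromosome 2, 109917647 to 110014257, plus strand) stood at 93.6, 68.2 and 35.8 CPM across the Hopx-CreER libraries and at 92.4, 107.7 and 101.4 CPM in the Lgr5-CreER libraries. Hopx-CreER library 1 lay within the range of the Lgr5-CreER group, and library 3 was 2.62-fold below it. Lgr4 had a log2 fold change of -0.61 ± 0.28 (SE), with a 95% interval from -1.24 to 0.03 (edgeR adjusted p 0.201). It was -0.32 without Hopx-CreER library 3, and -0.95 without library 1, where it passed the test (edgeR adjusted p 0.0408). Lgr5, the other R-spondin receptor gene of crypt cells, was 52.8, 50.3 and 21.0 CPM against 103.3, 110.5 and 109.6 CPM. Its RNA in Lgr5-CreER cells can be set in part by the eGFP gate. It can also be set by the eGFP-IRES-CreER allele at Lgr5, which is in the genotype of that group only. The same limit holds for the ratios and shares with Lgr5 below. Lgr5 was called lower in Hopx-CreER cells (log2 fold change -1.38 ± 0.29, SE; edgeR adjusted p 0.0147), a call kept in 4 of the 6 fits that left out 1 library and lost with the shared columns summed (0.0585). Lgr5 and Lgr4 were the 2 tested genes in a list of 7 R-spondin receptors and ligands. Lgr4 was 3.09, 2.36 and 2.98 times Lgr5 per kb in the Hopx-CreER libraries and 1.56, 1.70 and 1.61 times in the Lgr5-CreER libraries. The ratio was 1.72-fold higher in Hopx-CreER cells, with no overlap between the groups. The exact two-sided permutation test gave p = 0.1, the smallest that 3 against 3 allows (adjusted over 4 ratios, 0.133). Lgr5 alone did not overlap between the groups, so the test of this ratio is not independent of the Lgr5 call. With the lengths of the longest transcripts Lgr4 made up 46.9% ± 1.08 and Lgr5 53.1% ± 1.08 of the LGR sum in Lgr5-CreER cells (SD, n = 3), so their order there depends on the length used. Lgr6 had 5 counts in all Hopx-CreER libraries together, all in library 3, and none in the Lgr5-CreER libraries.

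Of the TCF factor genes, Tcf7 fell in Hopx-CreER cells and Tcf7l2 did not pass the test. Tcf7 (ENSMUSG00000000782.15; chromosome 11, 52252371 to 52283014, minus strand) stood at 22.2, 15.7 and 15.7 CPM across the Hopx-CreER libraries and at 48.7, 36.4 and 37.8 CPM in the Lgr5-CreER libraries. Each Lgr5-CreER library exceeded each Hopx-CreER library, and library 1 was the highest in each group. Means were 17.9 ± 3.76 and 41.0 ± 6.77 CPM (SD, n = 3), and the log2 fold change of -1.19 ± 0.21 (SE; edgeR adjusted p 0.00645) was the largest of the 10 members in size. The call held in all 16 alternatives, with log2 fold changes from -1.37 to -1.05 and adjusted p-values up to 0.0327. Tcf7 is also known as a T cell gene, and the T cell receptor complex genes Cd3e, Cd3d and Cd3g were at most 0.507 CPM in any library. The summed level of 8 T cell and leukocyte markers was 2.64 to 4.36 CPM in Hopx-CreER and 5.36 to 8.67 CPM in Lgr5-CreER libraries. Most of it was Lck (2.18 to 2.69 and 5.22 to 8.47 CPM), a kinase gene of T cells. Lck alone of these markers passed the filter on low counts. The means of all the other markers lay the other way, near the floor. Ptprc averaged 0.495 CPM in Hopx-CreER and 0.115 CPM in Lgr5-CreER libraries, and Cd3e averaged 0.349 and 0.0517 CPM. The part of T cells and other leukocytes in the Tcf7 result was not tested.

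Tcf7l2 (ENSMUSG00000024985.18; chromosome 19, 55741820 to 55933654, plus strand) stood at 35.1, 28.7 and 17.7 CPM across the Hopx-CreER libraries and at 30.5, 33.5 and 34.5 CPM in the Lgr5-CreER libraries. Hopx-CreER library 1 was the highest of all 6 and library 3 the lowest. Tcf7l2 had a log2 fold change of -0.27 ± 0.24 (SE), with a 95% interval from -0.81 to 0.27 (edgeR adjusted p 0.505), and -0.05 without Hopx-CreER library 3. Per kb of exon, Tcf7 was 2.12, 1.83 and 2.96 times Tcf7l2 in the Hopx-CreER libraries and 5.34, 3.63 and 3.66 times in the Lgr5-CreER libraries. The ratio was thus 1.84-fold higher in Lgr5-CreER cells without overlap. The exact two-sided permutation test gave p = 0.1, the smallest that 3 against 3 allows (adjusted over 4 ratios, 0.133). Tcf7 alone did not overlap between the groups, so the test of this ratio is not independent of the Tcf7 call. The size of that ratio within a group depends on the length used, since Tcf7l2 has 8775 bases of exon in all and 3715 in its longest annotated transcript. The length cancels from the difference between the groups, so a change of length is no check of it. A difference in transcript use between the groups was not tested. With the longest transcripts, Tcf7 and Tcf7l2 made up 49.4% ± 5.48 and 48.8% ± 6.49 of the TCF/LEF sum in Hopx-CreER cells, and 64.3% ± 4.63 and 34.7% ± 4.95 in Lgr5-CreER cells (SD, n = 3). Lef1 and Tcf7l1, the remaining family members, had at most 1.27 and 0.557 CPM in a library and did not pass the filter on low counts.

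Cofactors of β-catenin and TCF mostly did not pass the test. Of 13 tested genes in a list of 16 TCF/LEF factors and nuclear cofactors, 1 was called higher, 2 lower, and 10 failed the test. Both called genes beside Tcf7 encode Groucho-family corepressors, which bind TCF proteins in place of β-catenin. Tle3 fell by 1.03 ± 0.23 on the log2 scale (SE; edgeR adjusted p 0.0212), and Tle2 rose by 1.78 ± 0.48 (edgeR adjusted p 0.0417), from 0.60, 1.64 and 1.45 CPM to 2.49, 5.24 and 4.92 CPM. The Tle3 call held in 2 and the Tle2 call in 1 of the 6 fits that left out 1 library, and both were lost with the shared columns summed (edgeR adjusted p 0.0533 and 0.093). Bcl9l, which links β-catenin to Pygopus, had a log2 fold change of -0.98 ± 0.31 (edgeR adjusted p 0.0717). Of 14 tested genes of the β-catenin destruction complex and Dishevelled, 2 were lower and 12 did not pass. Axin2, a scaffold of that complex and itself a Wnt target, fell by 1.34 ± 0.23 (edgeR adjusted p 0.00627), and Csnk1e, which encodes casein kinase 1 epsilon, fell by 0.65 ± 0.16 (edgeR adjusted p 0.0295), a call kept in 2 of the 6 fits that left out 1 library and lost with the shared columns summed (0.102). Gsk3b, a kinase gene of the complex, had a log2 fold change of -0.59 ± 0.21 (edgeR adjusted p 0.0996).

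**Figure D3:**
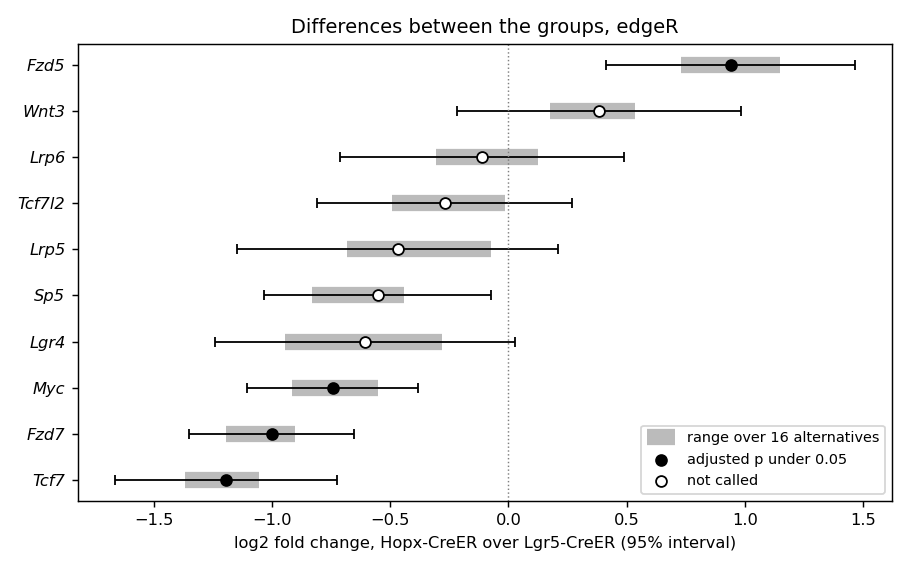
Log2 fold change of each gene, Hopx-CreER over Lgr5-CreER, from edgeR with its 95% interval (black), and the range over 16 alternative analyses (grey bar). Filled points passed an adjusted p of 0.05. Fzd5 at 0.94 is the only filled point above 0, and Tcf7 at -1.19, Fzd7 at -1.0 and Myc at -0.74 are the filled points below 0.

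Among the target genes, Myc fell and Sp5 lay lower without passing the test. Myc encodes a transcription factor of growth and proliferation that β-catenin and TCF4 are known to activate in colorectal cancer cells. Myc (ENSMUSG00000022346.14; chromosome 15, 61985391 to 61990374, plus strand) stood at 210.0, 202.2 and 136.4 CPM across the Hopx-CreER libraries and at 289.0, 307.7 and 322.1 CPM in the Lgr5-CreER libraries. The groups were well apart, and Hopx-CreER library 3 was the lowest. Myc had a log2 fold change of -0.74 ± 0.16 (SE; edgeR adjusted p 0.0167), and -0.58 without that library, where the call held. The call was lost when Lgr5-CreER library 2 or 3 was left out (edgeR adjusted p 0.0639 and 0.0683), and with the columns of a shared number summed (0.067).

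Sp5, a zinc finger factor gene that Wnt signalling switches on in many tissues, is the one whose window above held 3 motif matches. Sp5 (ENSMUSG00000075304.2; chromosome 2, 70474923 to 70477729, plus strand) stood at 15.7, 14.0 and 20.1 CPM across the Hopx-CreER libraries and at 27.0, 20.7 and 25.3 CPM in the Lgr5-CreER libraries. The groups did not overlap, but the highest Hopx-CreER library and the lowest Lgr5-CreER library were close. The log2 fold change was -0.55 ± 0.21 (SE), with a 95% interval from -1.03 to -0.07 before adjustment (edgeR adjusted p 0.128). It passed the test without Hopx-CreER library 3 (-0.73; edgeR adjusted p 0.0279) and with offsets for GC content (-0.83; edgeR adjusted p 0.0136). Of 17 tested genes in a list of 19 Wnt targets and SP factors, 9 were lower, Myc included, and 8 did not pass. Among all tested genes 3.3% were called lower. Mycn, which did not pass, lay the other way, at 12.0, 16.1 and 6.49 CPM in Hopx-CreER libraries. It had 5.62, 5.87 and 4.96 CPM in Lgr5-CreER libraries (log2 fold change 1.07 ± 0.35, edgeR adjusted p 0.0754). Tnfrsf19, a receptor gene of crypt stem cells, fell by 1.81 ± 0.14 (edgeR adjusted p 0.000374), Ascl2, a stem cell transcription factor, by 1.09 ± 0.15 (edgeR adjusted p 0.00239), and Ephb3, a receptor that positions Paneth cells, by 1.01 ± 0.15 (edgeR adjusted p 0.00378). Leaving out Lgr5-CreER library 2, leaving out library 3 or summing both gave 5 lower genes in that list. This list shares Lgr5, Ascl2 and Tnfrsf19 with the 7 stem cell markers. It also shares Axin2 with the destruction complex list and Lgr5 with the R-spondin list, so the counts of the lists are not independent. The limit of gate and allele given above holds for Lgr5 here too.

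Hopx-CreER library 3 departed from libraries 1 and 2 by different amounts for different members. Its log2 level minus the mean of the other two was -1.15 for Lgr4, -0.84 for Tcf7l2 and -0.59 for Lrp6, whose longest transcripts have 46.3%, 47.3% and 46.0% GC. The other members, at 52.3% to 62.0% GC, spread from -0.60 for Myc and -0.25 for Tcf7 to 0.44 for Sp5. Over all 12426 tested genes with a value the same deviation followed GC content (Spearman rho 0.473, across genes of the same libraries), with a median of -0.42 for the 4849 genes under 48% GC and 0.18 for the 4851 genes at 52% GC or more. With offsets for GC content the log2 fold changes of Lgr4, Tcf7l2 and Lrp6 were -0.59, -0.27 and -0.06, and Fzd5, Fzd7, Tcf7 and Myc kept their calls. Over all tested genes these offsets gave 1037 lower and 1044 higher calls, against 410 and 1176 without them. A lower call is thus more common with the offsets.

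**Figure D4:**
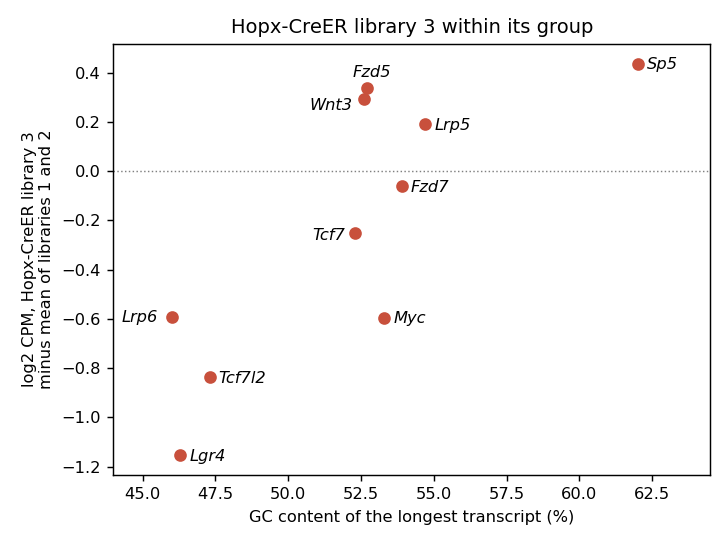
Log2 CPM of each gene in Hopx-CreER library 3 minus its mean in libraries 1 and 2 (vertical axis) against the GC content of its longest transcript in percent. Lgr4, Tcf7l2 and Lrp6, at 46.0% to 47.3% GC, lie between -1.15 and -0.59, and Sp5, at 62.0% GC, lies at 0.44.

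Levels between genes were compared per kb of exon. In Lgr5-CreER cells Myc was highest at 112.7 ± 6.10 CPM per kb, followed by Lgr4 at 17.1, Tcf7 at 15.6, Fzd7 at 12.2, Sp5 at 11.6, Tcf7l2 at 3.74, Wnt3 at 3.53, Fzd5 at 1.86, Lrp5 at 1.68 and Lrp6 at 0.980 (means, n = 3). Library ranges overlapped between the neighbours Lgr4 and Tcf7, Fzd7 and Sp5, Tcf7l2 and Wnt3, and Fzd5 and Lrp5. In Hopx-CreER cells the order was Myc at 67.3 ± 14.9, Lgr4 at 11.2, Sp5 at 7.91, Tcf7 at 6.81, Fzd7 at 6.07, Wnt3 at 4.60, Fzd5 at 3.59, Tcf7l2 at 3.10, Lrp5 at 1.22 and Lrp6 at 0.906 CPM per kb. There the ranges of neighbours were separate only between Myc and Lgr4, Fzd7 and Wnt3, and Tcf7l2 and Lrp5. In Hopx-CreER cells the place of Tcf7l2 depends on the length used. It was at place 8 per kb of exon and at place 4 by longest transcripts, with 7.32 CPM per kb. In Lgr5-CreER cells Tcf7l2 stood at 8.84 CPM per kb by its longest transcript and at place 6 by either length.

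Some other genes had nearly the same profile over the 6 libraries. Likeness was measured as the root mean square difference of log2 CPM after centring each gene, among 11492 other tested protein-coding genes, and it is a description over 6 libraries in 2 groups. The nearest genes were Ces1d for Fzd7 (0.0945), Sfn for Fzd5 (0.0911), Tbc1d9 for Tcf7 (0.0884), Ftsj3 for Myc (0.0583), Ipo8 for Lgr4 (0.058), Zbed3 for Sp5 (0.06), Zfp398 for Tcf7l2 (0.0408), mt-Co1 for Lrp6 (0.054), Prrc2a for Lrp5 (0.0827) and H2-Q10 for Wnt3 (0.0989). Next in likeness came Ripor2 and Ogt for Fzd7, Ces2a and Crybg2 for Fzd5, Arhgef4 and Tcaf2 for Tcf7, and Wdr75 and Champ1 for Myc. Among the members themselves the nearest were Myc and Lgr4 at 0.226 and Tcf7l2 and Lgr4 at 0.23, and the farthest were Tcf7 and Fzd5 at 1.11. Ces1d, Ces2a and H2-Q10 belong to families of near-identical genes, so their counts are uncertain.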

How the data were processed

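The authors deposited 1 table of raw counts, whole and not normalized, 1 row for each versioned mouse Ensembl identifier. The tools kallisto and edgeR and the build GRCh38 are named, per the submitters' processing notes, without role or order. GRCh38 is a human build while the identifiers are of mouse. Read assignment and strand setting are not stated by the sources used here. Per the labels' protocols, cells were sorted into TRIzol LS, cDNA came from a SMART-Seq kit and was prepared with Nextera XT, without a mark of strand or molecular identifiers. Libraries vary beyond counting error, and the spread between libraries may be partly technical. Symbols and positions came from GENCODE M21 (GRCm38), which matched 23479 identifiers and left 86 unmatched; exon length is the union of a gene's exons. All 6 columns were used.

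The quasi-likelihood test of edgeR 4.0.16 in R 4.3.3 compared the groups (TMM, default filterByExpr, Benjamini-Hochberg adjustment over 12439 genes, threshold 0.05). SEs came from the F statistic, intervals from the t distribution. CPM is the count scaled to the effective library size; log2 CPM used a prior count of 2. Ratios of counts per kb were compared by exact permutation tests over libraries. Pairs of libraries of a group differed by 8.76 to 47.2 in chi-square per degree of freedom, so none agreed within sampling noise. The lowest value was that of Lgr5-CreER libraries 2 and 3, the columns of the shared number. The other Lgr5-CreER pairs had 20.0 and 21.0. The SD of log2 differences was 0.258 for libraries 2 and 3, against 0.341 and 0.326. Whether libraries 2 and 3 came from 1 mouse was not tested. Alternatives were RLE, upper quartile or no factors, DESeq2 1.42.0, limma-voom 3.58.1, other filters, leaving out each library, summing both columns of the shared number, and offsets for transcript GC content (spline, 5 degrees of freedom). On simulated data for this comparison (12439 genes, 200 changed), 47.8% of genes with a 2-fold and 5.97% with a 1.5-fold change were called. The simulation gave 100 calls where the data gave 1586, and held no library that departs with GC content. These rates therefore need not hold for the data.

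Named genes are the 10 members and up to 3 others from each of 7 pathway lists. These others were taken by smallest p among genes averaging 1 CPM or more in the higher group. Lck, Lef1, Tcf7l1, Lgr6, Mycn and single markers were named after their values were seen. The members and lists were chosen with earlier results of these data known.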

Additional observations from a re-analysis of the deposited data

How the results depend on the processing

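Over 16 alternatives for each of the 10 members, 146 of 160 results kept their direction and their side of the threshold, 8 lost a call, 4 gained one and 2, both of Lrp6, changed sign. The count of members called higher, 1 in the analysis as reported, fell to 0 when both columns of the shared number were summed, and to 0 when Hopx-CreER library 3 was also left out, a combination chosen after the data were seen. Leaving out 1 library at a time gave 0 to 1 members called higher and 2 to 4 called lower. Fits with 5 libraries have fewer residual degrees of freedom. Lrp6 ranged from -0.31 to 0.048 over left-out libraries and was 0.13 with the columns summed and Hopx-CreER library 3 left out. Porcn, which is not a member, changed sign in 4 alternatives: it ranged from -0.13 to 0.47 over left-out libraries and was -0.020 with the columns summed, -0.076 when Hopx-CreER library 3 was also left out and -0.081 with GC offsets; none of these passed the test. The log2 ratio of Lrp5 to Lrp6 turned from -0.27 to 0.21 without Lgr5-CreER library 1, and ranged from -0.56 to 0.21 over left-out libraries. The other ratios kept their direction, at -2.23 to -1.71 for Fzd7 to Fzd5, -1.07 to -0.69 for Tcf7 to Tcf7l2, and 0.71 to 0.90 for Lgr4 to Lgr5. Over all genes, calls were 1176 higher and 410 lower (74.1% higher), against 1403 and 694 with DESeq2, 938 and 729 (56.3%) with library totals alone, which shifted the median of all genes by -0.11, and 1044 and 1037 (50.2%) with GC offsets. Leaving out 1 library gave 606 to 1275 higher and 117 to 593 lower, and summing both columns of the shared number gave 659 and 131 (83.4%). No paired analysis was possible because the columns carry no replicate number of the labels.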
